A study of Macaca mulatta with 43 samples.

Results

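The 72 genes described here carry symbols used for the interferon response, the major histocompatibility complex (MHC) and innate sensing of microbes and of nucleic acids. Macaque MHC genes carry the prefix MAMU. The genes were picked by symbol from the 14132 gene symbols that had a probeset of their own on the rhesus macaque array. A symbol alone does not show that a gene acts in these processes. The rule used no measured value, but it was set with earlier results of these data known. A gene was taken if its symbol began with MAMU, IFIT, IFITM, IFIH, OAS, ISG, or with IFI, IRF, TLR, STAT or TRAF followed by a digit, or if it was MX1, MX2, TANK, B2M, TAP1 or TAP2. In all, 142 probesets measured these genes. For the 40 genes with several probesets, the one with the highest mean over all arrays stood for the gene. A further 10 probesets that carried several gene symbols were left out. A filter on low values removed 1 gene, the double-stranded RNA receptor TLR3, so that 71 members were tested.

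Prefrontal cortex was compared between adult male rhesus macaques that had drunk ethanol for a year and controls of the same cohorts. RNA of each animal, pooled from the medial prefrontal Brodmann areas 24, 25 and 32, was hybridised to 1 array, for 32 ethanol and 11 control animals. The ethanol animals, first brought to drink by schedule-induced polydipsia, chose freely between water and 4% (w/v) ethanol during 22 hours of each day, and were necropsied within hours of their last access. The controls drank water, received a daily maltose dextran solution matched in calories to a drinker, and are labelled water controls. The ethanol group held 11 animals of cohort 4, 8 of cohort 5, 8 of cohort 7a and 5 of cohort 7b, against 5 controls of cohort 5, 4 of cohort 7a and 2 of cohort 7b. Cohort 4 had no control, and intake was chosen by each animal. The RNeasy Mini Kit was used for cohorts 4 and 5 and the AllPrep DNA/RNA/miRNA Universal Kit for cohorts 7a and 7b, so kit and cohort cannot be told apart.

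Sensors such as the Toll-like receptors and IFIH1 (MDA5, a receptor for long double-stranded RNA in the cytoplasm) signal through adaptors of the TRAF family to the kinase TBK1 and to IRF and NF-κB transcription factors, which switch on interferon genes. Secreted interferon then acts through JAK kinases and STAT factors to induce a wide set of effector genes, among them the IFIT, OAS and MX families, and it raises MHC class I together with the TAP peptide transporter. In brain, microglia carry most Toll-like receptors and MHC class II, and neurons and astrocytes can also answer interferon.

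All values below are log2 values from robust multi-array averaging (RMA) as deposited, without batch adjustment, so a difference of 1 is a 2-fold change. The arrays fell into 8 processing batches, 7 of which held both groups, and no batch joined cohorts 4 and 5 with cohorts 7a and 7b. Neuronal, astrocytic and oligodendrocyte markers were high on every array, with list means of at least 10.06, 11.11 and 12.25. The actin signal from the 3′ end minus that from the 5′ end, which grows as RNA or copies are shortened, averaged 4.51 to 4.54 in ethanol animals of cohorts 4 and 5 and 4.50 in controls of cohort 5. In cohort 7a it was 1.26 ± 0.21 in ethanol animals and 0.82 ± 0.06 in controls, and in cohort 7b 1.10 ± 0.37 in ethanol animals and 0.78 ± 0.04 in controls (SD). The median over all tested probesets ran from 6.82 to 6.98 in ethanol arrays of cohorts 7a and 7b and from 6.95 to 7.01 in their controls.

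Over all cohorts, 11 of the 71 tested members differed between ethanol and control animals (limma, Benjamini-Hochberg over 23815 probesets, adjusted p under 0.05, here named called). Of these, 10 were lower in ethanol animals: the sensors IFIH1, TLR1, TLR6 and TLR7 and the induced genes IFIT1, IFIT3, IFI27, IFI30, ISG15 and OAS2. A single member, the adaptor TANK, was higher. The called members made up 14.1% of members in the lower direction and 1.41% in the higher one. Among all 13705 tested genes, 10.3% were lower and 6.22% were higher. The median difference of the members was -0.08, that of all tested genes -0.03, and 54 of 71 members had a negative difference. How many of all genes had one was not counted. At an unadjusted p under 0.05 there were 23 of 71 members, beside 4291 of 13705 genes, a similar share.

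The call of each of these 11 genes depended on the model. With processing batch as a block and RNA integrity number as a covariate, none of the 11 was called, and 0.744% of all genes were. In that fit the difference of IFIH1 was -0.40 (adjusted p = 0.0528), of ISG15 -0.24 (adjusted p = 0.104) and of TLR6 -0.14 (adjusted p = 0.214), against -0.48, -0.26 and -0.16 without these terms. Those of IFIT1 (-0.16 against -0.36) and TANK (0.17 against 0.29) were smaller, and the other 6 lay from -0.26 to -0.12. With batch as a block alone, 9 of the 11 were called, without TLR7 (adjusted p = 0.0573) and TLR6 (adjusted p = 0.0768). With every array shifted to the same median, 3 were called (TANK higher, IFIH1 and IFI30 lower), and the split over all genes was 1182 higher and 587 lower, against 853 higher and 1411 lower without the shift. Each of the 11 ran in its called direction in at least 6 of the 7 batches that held both groups, with IFIH1, OAS2 and TANK doing so in all 7. The 11 were called from these same arrays, which favours such agreement, and each of these batches held 1 or 2 controls. Each batch of cohorts 4 and 5 also set drinkers of cohort 4 beside controls of cohort 5. How many of all genes ran the same way in all 7 batches was not counted. The batch directions here and below are therefore a description and no separate test.

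Leaving out single animals showed how far these calls leaned on a few controls. Without the first or the second control of cohort 7b, 3 and 4 members were called in place of 11, while the share called over all genes was 7.33% and 7.35% in place of 16.5%. In the model without a batch block, IFIH1, IFI30 and ISG15 kept their calls whichever of the 11 controls or 5 ethanol animals of cohort 7b was left out. With the block, IFIH1 kept its call without any single control, ISG15 lost its call without the first control of cohort 7b (0.0569) and IFI30 without 2 of the controls of cohort 7a or either of cohort 7b (0.0573 to 0.0848). The other losses given here come from the model without the block. TLR1 (adjusted p = 0.0644 and 0.0549), TLR7 (0.0836 and 0.0675) and IFIT3 (0.0813 and 0.0818) lost theirs without either control of cohort 7b, and TANK (0.0526) without the first of them. IFIT1 lost its call without either of these (0.0895 and 0.0964) or without the third control of cohort 7a (0.0509). TLR6 lost its call without any single control of cohorts 7a and 7b (0.063 to 0.0904). IFI27 did so without 3 of the 4 controls of cohort 7a or either of cohort 7b (0.0511 to 0.145), and OAS2 without 1 control of cohort 5, 2 of cohort 7a or either of cohort 7b (0.0533 to 0.107).

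**Figure D1:**
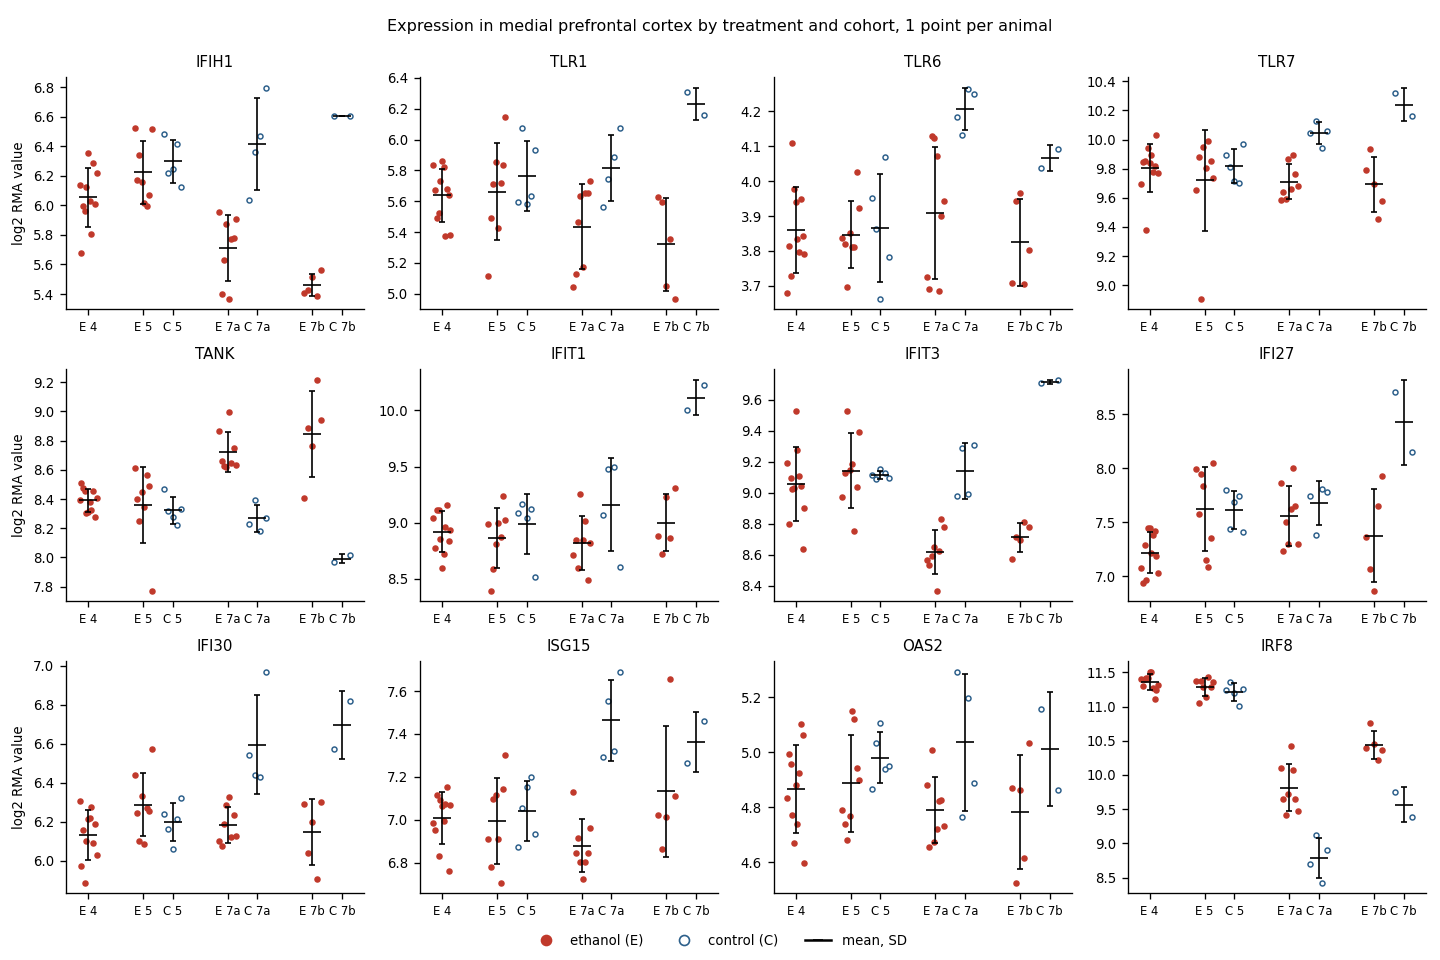
Log2 RMA value (vertical axes) of the 11 members called over all cohorts and of IRF8 in every animal, by treatment and cohort (E, ethanol, filled; C, control, open), with group mean and SD as bars. In cohorts 7a and 7b the ethanol means lie above the control means for TANK and IRF8 and below them for the other 10 genes, while in cohort 5 the groups overlap in all 12 panels.

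Among the sensors, 4 of 10 tested members were lower and none was higher. IFIH1 showed the largest fall of all called members. It ranged over 5.37, 5.98 and 6.52 (lowest, median, highest) in ethanol animals and over 6.04, 6.41 and 6.80 in controls, a difference of -0.48 ± 0.11 (SE, adjusted p = 0.00303, limma). In cohort 7a it read 5.37, 5.77 and 5.95 (lowest, median, highest) in ethanol animals against 6.04, 6.36, 6.47 and 6.80 in controls. In cohort 7b the 5 ethanol animals read 5.40, 5.43, 5.52, 5.39 and 5.56, and the 2 controls 6.61 and 6.60. All 13 ethanol animals of these 2 cohorts thus lay below all 6 controls. In cohort 5 the groups overlapped, with 5.997, 6.16 and 6.52 in ethanol animals and 6.48, 6.22, 6.25, 6.41 and 6.13 in controls. Groups that do not overlap within a single later cohort were common on these arrays. In cohort 7b, with 2 controls, this held for 18 of 71 members lower and 5 higher, beside 3897 and 2272 of 13705 genes. In cohort 7a it held for 9 members lower and 2 higher, beside 794 and 688 genes.

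TLR7, the endosomal receptor for single-stranded RNA, had the same pattern with smaller steps. It read 9.58, 9.67 and 9.89 (lowest, median, highest) in ethanol animals of cohort 7a against 10.04, 10.13, 9.94 and 10.06 in controls. Cohort 7b gave 9.79, 9.94, 9.70, 9.45 and 9.58 in ethanol animals against 10.32 and 10.16 in controls. No ethanol value reached a control value in these cohorts, although in cohort 7b the highest ethanol value, 9.94, equalled the lowest control value of cohort 7a to 2 decimals. Over all cohorts the difference was -0.23 ± 0.07 (SE, adjusted p = 0.0236), and both other probesets of TLR7 had negative differences, -0.24 and -0.14, without being called.

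TLR1 and TLR6, the partners of TLR2 in the recognition of bacterial lipoproteins, lie next to each other and to TLR10 in the rhesus gene order. TLR1 differed by -0.32 ± 0.09 (SE, adjusted p = 0.0169) over all cohorts. It stood at 5.63, 5.59, 5.05, 5.36 and 4.97 in ethanol animals of cohort 7b and at 6.31 and 6.16 in controls. In cohort 7a its groups overlapped, with 5.04, 5.55 and 5.73 (lowest, median, highest) in ethanol animals and 5.56, 5.74, 5.89 and 6.07 in controls. TLR6 was dim on this array and differed by -0.16 ± 0.05 (SE, adjusted p = 0.0326). Its highest ethanol value in cohort 7a was 4.13, to 2 decimals the same as the lowest of the control values 4.18, 4.13, 4.26 and 4.25. Its second probeset differed by 0.0024. TLR2 itself (-0.11) and the lipopolysaccharide receptor TLR4 (-0.21) missed the threshold over all cohorts. So did TLR8, TLR9, TLR10 and TLR5, whose differences lay between -0.12 and 0.04. TLR2 was called lower in cohort 7a (-0.24, adjusted p = 0.0174). The ethanol effect in cohorts 7a and 7b was called more negative than in cohort 5 for TLR2 (-0.25) and TLR4 (-0.58). TLR3, read at 2.77 ± 0.09 in ethanol animals and 2.83 ± 0.11 in controls (SD, n = 32 and 11), fell under the filter.

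Of the 10 adaptors, 1 was higher and none lower. TANK binds TRAF proteins and the kinases TBK1 and IKKε and can restrain NF-κB signaling. Its chosen probeset read 8.62, 8.65 and 8.996 (lowest, median, highest) in ethanol animals of cohort 7a against 8.23, 8.40, 8.18 and 8.27 in controls. In cohort 7b the ethanol animals stood at 8.41, 8.88, 8.76, 9.22 and 8.94 and the controls at 7.97 and 8.01. Every ethanol value of these 2 cohorts lay above every control value, and the difference over all cohorts was 0.29 ± 0.08 (SE, adjusted p = 0.0156). The direction did not hold over the gene. Of its 5 other tested probesets only 1 had a positive difference, 0.04, while 2 were called lower, at -0.35 (adjusted p = 0.00144) and -0.41 (adjusted p = 0.0113), so the arrays give no single direction for TANK. The mean over its 6 probesets differed by -0.15 (adjusted p = 0.0501).

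The other adaptors were not called over all cohorts. They ran from -0.20 for TRAF3IP2 (Act1, the adaptor of the interleukin-17 receptor) to 0.17 for TRAF7. The batch block called TRAF3IP2 lower (-0.23, adjusted p = 0.0479), but not with RNA integrity number added (-0.15, adjusted p = 0.377). TRAF3, the branch point toward interferon induction, differed by 0.0037 and TRAF6, the branch point toward NF-κB, by -0.0003. TRAF3 was called higher in cohort 7b (0.48 ± 0.12, SE, adjusted p = 0.000872) but had a difference of -0.14 in cohort 7a. TRAF3IP1, whose product is also a part of intraflagellar transport, and TRAF3IP2 were called lower in cohort 7b at -0.55 and -0.78.

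None of the 13 transcription factors was called over all cohorts, and their median difference was -0.02. With processing batch as a block, IRF8 (0.53, adjusted p = 0.00312) and STAT3 (-0.43, adjusted p = 0.00161) were called, and both remained so with RNA integrity number added (0.57, adjusted p = 0.0388, and -0.39, adjusted p = 0.0474). IRF8, which microglia and other myeloid cells need for their development, came nearest (0.78 ± 0.28, SE, adjusted p = 0.0532). Its level set the 2 processing groups apart: the chosen probeset ran from 11.05 to 11.51 in ethanol animals of cohorts 4 and 5 and from 11.01 to 11.36 in controls of cohort 5. In cohort 7a it read 9.42, 9.69 and 10.42 (lowest, median, highest) in ethanol animals against 8.70, 9.12, 8.43 and 8.91 in controls. In cohort 7b it stood at 10.39, 10.76, 10.45, 10.23 and 10.36 in ethanol animals and at 9.75 and 9.38 in controls. Within each of these cohorts the ethanol animals were all above the controls, with differences of 1.03 ± 0.13 (SE, adjusted p = 7.83e-08) in 7a and 0.87 ± 0.17 (adjusted p = 7.66e-05) in 7b. As for TANK, the other probesets of IRF8 disagreed, with differences over all cohorts of -0.15 and -0.11, and the first of them was called lower in cohort 7b (-0.32, adjusted p = 0.0364).

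STAT3, which carries interleukin-6 and interferon signals to the nucleus, had a negative difference in all 7 batches, from -0.82 to -0.11. It read 4.94, 5.41 and 6.002 in ethanol animals of cohort 7a (lowest, median, highest) and 6.08, 6.13, 6.15 and 6.32 in controls. The cohort 7b values were 5.67, 5.11, 5.62, 5.27 and 5.52 in ethanol animals and 6.05 and 5.98 in controls. The groups did not overlap within either cohort, and both cohorts were called (-0.75 and -0.58). With all cohorts in 1 comparison its difference of -0.66 ± 0.27 (SE) missed the threshold (adjusted p = 0.0919). Among drinkers alone, its mean level was 1.41 higher in cohorts 7a and 7b than in cohorts 4 and 5. IRF1 and IRF2 also had negative differences in 7 of 7 batches, at -0.15 and -0.14 over all cohorts, without being called there. IRF1 was called lower in cohort 7a (-0.29). IRF2 differed by -0.06 in cohort 5, -0.02 in 7a and -0.25 in 7b and was called in no cohort. IRF3 and IRF7, 2 of the factors that act directly on interferon genes, differed by -0.04 and -0.11. STAT2, a factor activated by type I interferon, differed by 0.01, and STAT5A, STAT5B, STAT6, IRF4, IRF5 and IRF2BP1 by -0.07 to 0.07. In single cohorts, IRF7 was called lower in 7a (-0.18) and IRF5 higher in 7b (0.32).

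The induced effectors held 6 of the 10 members called lower, out of 22 tested, and none called higher. IFIT1, whose product binds viral RNA ends, and IFIT3, whose product binds that of IFIT1, lie in a single row of genes with IFIT1B and IFIT2. IFIT3 read 8.37, 8.61 and 8.83 (lowest, median, highest) in ethanol animals of cohort 7a against 8.98, 9.29, 8.99 and 9.31 in controls. The cohort 7b values were 8.57, 8.72, 8.70, 8.81 and 8.78 in ethanol animals and 9.71 and 9.72 in controls. The 13 ethanol values lay below the 6 control values without overlap, and the difference over all cohorts was -0.32 ± 0.10 (SE, adjusted p = 0.0224). Its 2 other probesets were called lower too, at -0.29 and -0.26. IFIT1 differed by -0.36 ± 0.11 (SE, adjusted p = 0.0215). The 2 controls of cohort 7b stood at 10.003 and 10.23, and no other animal exceeded 9.49. IFIT2 differed by -0.02.

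IFI30, the thiol reductase (GILT) that opens disulfide bonds of antigens in lysosomes, had the smallest p of the effectors. It read 6.07, 6.16 and 6.33 (lowest, median, highest) in ethanol animals of cohort 7a against 6.54, 6.44, 6.43 and 6.97 in controls. Cohort 7b gave 6.29, 6.04, 6.20, 5.91 and 6.30 in ethanol animals against 6.57 and 6.82 in controls. Ethanol and control animals of these cohorts did not overlap, and the difference over all cohorts was -0.25 ± 0.07 (SE, adjusted p = 0.00884). In cohort 5 it ran the other way without being called (0.09 ± 0.08), with 6.09, 6.26 and 6.57 in ethanol animals and 6.24, 6.16, 6.06, 6.21 and 6.32 in controls.

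ISG15, a ubiquitin-like protein that is attached to other proteins, was called in cohort 7a and not in cohort 7b. It read 6.72, 6.85 and 7.13 in ethanol animals of cohort 7a (lowest, median, highest) against 7.29, 7.55, 7.32 and 7.69 in controls, with no overlap. In cohort 7b it stood at 7.02, 6.86, 7.01, 7.66 and 7.11 in ethanol animals and at 7.26 and 7.46 in controls, so that 1 ethanol animal was above both controls. Over all cohorts the difference was -0.26 ± 0.07 (SE, adjusted p = 0.0114), with -0.59 in cohort 7a (adjusted p = 4.7e-05) and -0.23 in cohort 7b (adjusted p = 0.211).

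IFI27, a mitochondrial protein gene strongly induced by type I interferon, was called in cohort 7b and not in cohort 7a, and a difference between these cohorts was tested for neither gene. Its difference was -0.12 in cohort 7a (adjusted p = 0.632) and -1.05 ± 0.23 (SE, adjusted p = 0.000338) in cohort 7b, where ethanol animals read 7.37, 7.07, 6.87, 7.65 and 7.93 and controls 8.70 and 8.15. Over all cohorts the difference was -0.35 ± 0.12 (SE, adjusted p = 0.0369). Its neighbours IFI27L2 and IFI27L1 differed by -0.27 and -0.08 over all cohorts, and IFI27L2 was called lower in cohort 7b (-0.71). OAS2, which makes the oligoadenylates that activate RNase L, was dim and differed by -0.17 ± 0.06 (SE, adjusted p = 0.0405), with a negative difference in all 7 batches. Its values ran over 4.53, 4.83 and 5.15 (lowest, median, highest) in ethanol animals and over 4.77, 4.95 and 5.29 in controls, with wide overlap.

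The remaining effectors were not called over all cohorts. OAS3 and MX1, also classical interferon targets, had differences of 0.04 and 0.04, OASL of -0.10 and MX2 of -0.10. MX2 was called lower in cohort 7a (-0.27). OAS1 was positive at 0.25 ± 0.19 (SE, adjusted p = 0.375) and was called higher in cohort 7a (0.24, adjusted p = 0.0109) while it differed by -0.14 in cohort 7b. IFI16, a DNA sensor that interferon induces, was not called over all cohorts (-0.24, adjusted p = 0.231). It was called lower with the batch block (-0.31, adjusted p = 0.0176) and in both later cohorts. With RNA integrity number added to the block, IFI16 differed by -0.25 and was not called (adjusted p = 0.188). It read 6.76, 6.95 and 7.50 (lowest, median, highest) in ethanol animals of cohort 7a against 7.15, 7.33, 7.36 and 7.87 in controls. In cohort 7b it read 6.85, 6.61, 6.75, 7.11 and 6.67 in ethanol animals against 7.83 and 7.79 in controls. The groups were apart in cohort 7b and overlapped in cohort 7a, and all 3 of its probesets had negative differences over all cohorts, 1 of them called (-0.35). IFI44 (-0.80, adjusted p = 0.0131) was called lower in cohort 7b and in neither of the other 2 cohorts.

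No antigen presentation gene was called among 16 tested, and 2 had an unadjusted p under 0.05. Of the 16 differences 15 were negative, and 12 were so after the arrays were shifted to 1 median. Their median was -0.09, and -0.03 after the shift, beside -0.03 and 0.03 over all genes. The share of negative differences over all genes was not counted. Many probesets of this family can bind transcripts of several MHC loci or miss alleles of one animal. Each thus stands for a probe signal rather than a single locus, and the signs need not be independent. MAMU-A, a classical class I chain that shows peptides to CD8+ T cells, came nearest the threshold (-0.37 ± 0.13, SE, adjusted p = 0.0515). It read 8.31, 8.45 and 9.23 (lowest, median, highest) in ethanol animals of cohort 7a against 9.47, 9.33, 9.30 and 8.82 in controls. Cohort 7b gave 8.99, 9.55, 8.43, 9.25 and 8.51 in ethanol animals against 9.45 and 9.24 in controls, where the groups overlapped. MAMU-B, the other classical class I locus, differed by -0.03, MAMU-E by -0.10, MAMU-F by -0.10 and MAMU-I by -0.10.

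B2M, the light chain that every class I molecule needs, was not called over all cohorts (-0.16, adjusted p = 0.279). It was called lower with the batch block (-0.23, adjusted p = 0.033) and in both later cohorts. With RNA integrity number added to the block, B2M differed by -0.07 and was not called (adjusted p = 0.578). It stood at 11.40, 11.67 and 11.88 (lowest, median, highest) in ethanol animals of cohort 7a and at 11.87, 11.99, 11.98 and 12.37 in controls, a difference of -0.40 ± 0.08 (SE, adjusted p = 0.000387). In cohort 7b it stood at 12.16, 11.88, 12.08, 11.91 and 12.23 in ethanol animals and at 12.70 and 12.53 in controls, a difference of -0.56 ± 0.11 (SE, adjusted p = 0.000111). The groups overlapped slightly in cohort 7a and were apart in cohort 7b, as they were for 3897 of 13705 genes lower there. The second B2M probeset differed by -0.72 and -0.81 in cohorts 7a and 7b. The transporter genes TAP1 and TAP2 differed by -0.08 and -0.05 over all cohorts, with TAP1 called lower in cohort 7a (-0.22) and TAP2 in cohort 7b (-0.36).

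Among class II genes, MAMU-DRA, the alpha chain of the DR molecule, had a difference of -0.31 ± 0.14 (SE, adjusted p = 0.116) on its chosen probeset. Both other probesets were called lower over all cohorts, at -0.37 (adjusted p = 0.0345) and -0.64 (adjusted p = 0.00477). The chosen probeset read 6.92, 7.14 and 7.37 in ethanol animals of cohort 7a (lowest, median, highest) and 7.75, 7.60, 7.70 and 8.21 in controls. The cohort 7b values were 8.46, 7.78, 8.70, 7.55 and 8.02 in ethanol animals and 8.25 and 8.15 in controls. Thus cohort 7a was split without overlap and cohort 7b was not. MAMU-DMA, which loads peptides onto class II, was called lower in cohort 7a (-0.32, adjusted p = 0.00939) and so was MAMU-DQB1 (-0.36, adjusted p = 0.025). MAMU-DQA1 (-0.04), MAMU-DPA (-0.07), MAMU-DOB (-0.09) and MAMU-DOA (0.05) showed no called difference in any of the 3 cohorts.

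Set beside one another, the 3 cohorts that held both groups gave different pictures, and they share the spread of the same fit. In cohort 5 no member was called with 8 ethanol and 5 control animals (limma), and 1 had an unadjusted p under 0.05 (TAP2, 0.19 ± 0.08, SE, p = 0.0293). No gene of all those tested was called there either (0%), with 418 at an unadjusted p under 0.05. The 11 members called over all cohorts differed by 0.01 to 0.12 in size in cohort 5. In cohort 7a, 19 members (26.8%) were lower and 5 (7.04%) higher, against 18.3% lower and 11.8% higher among all genes. In cohort 7b, 15 (21.1%) were lower and 4 (5.63%) higher, against 26.6% lower and 15.2% higher among all genes. The members' share of lower calls was thus above that of all genes in 7a and below it in 7b. The median difference of members was -0.16 in 7a and -0.15 in 7b, and that of all genes -0.05 and -0.06. After the shift to 1 median the calls became 11 lower and 5 higher in 7a, and 14 lower and 9 higher in 7b. Over all genes the same shift gave 1452 lower and 2317 higher in 7a, in place of 2514 and 1621, and 2788 lower and 2946 higher in 7b, in place of 3649 and 2077. The median of all genes moved to 0.01 in 7a and 0.04 in 7b.

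**Figure D2:**
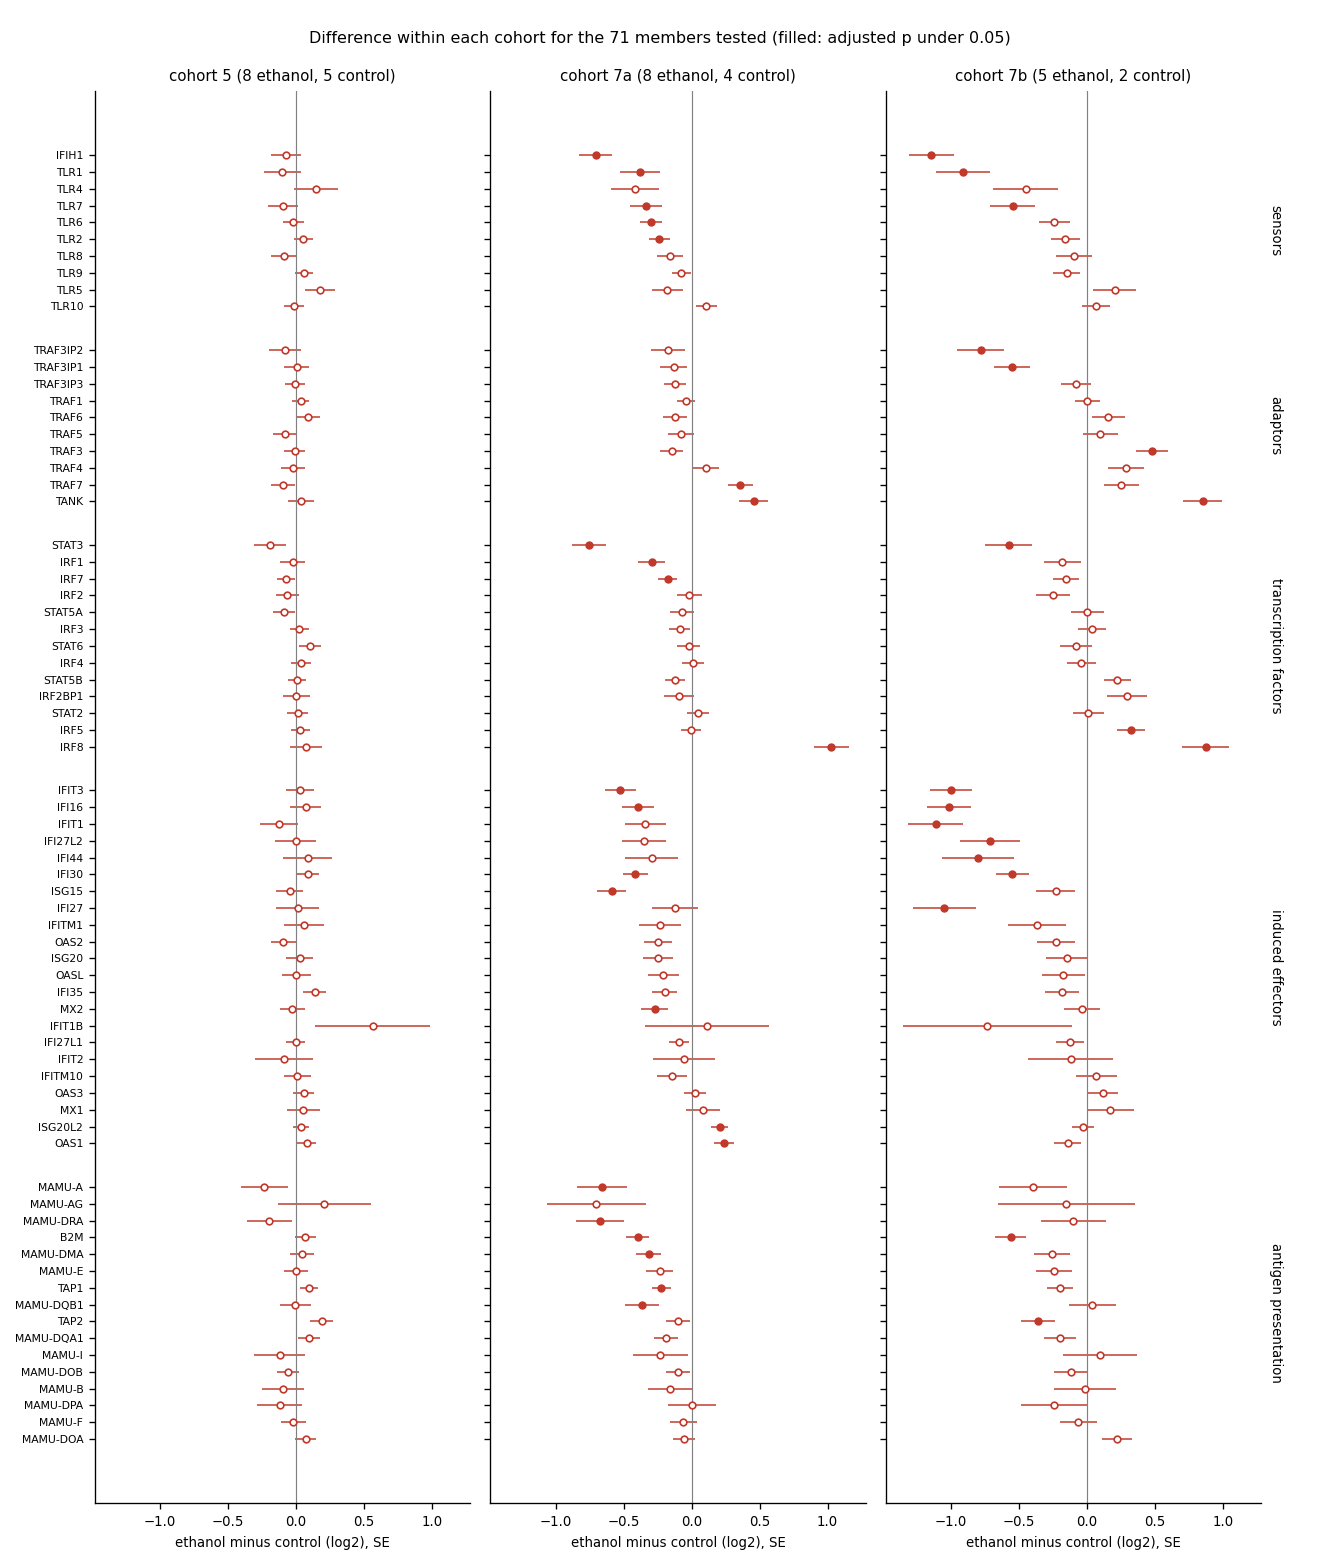
Difference of ethanol minus control (log2, horizontal axes) with SE for the 71 tested members, grouped by role, in cohorts 5, 7a and 7b; filled points had an adjusted p under 0.05. Cohort 5 has no filled point, cohort 7a has 24 and cohort 7b has 19, most of them to the left of 0.

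In all, 10 members were called in both cohorts 7a and 7b, whose animals are separate though their arrays shared processing batches. These were 10 of the 24 called in 7a and 10 of the 19 called in 7b. Lower in both were IFIH1, TLR1, TLR7, STAT3, IFIT3, IFI16, IFI30 and B2M (11.3% of members, against 12.8% of all genes lower in both), and higher in both were TANK and IRF8 (2.82% of members, against 8.57% of all genes). Over the 13 ethanol and 6 control animals of these cohorts, the groups did not overlap for 5 members. IFIH1, TLR7, IFIT3 and IFI30 were lower in every ethanol animal than in every control (5.63% of members, 2.42% of all genes), and TANK was higher (1.41% of members, 2.28% of all genes).

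**Figure D3:**
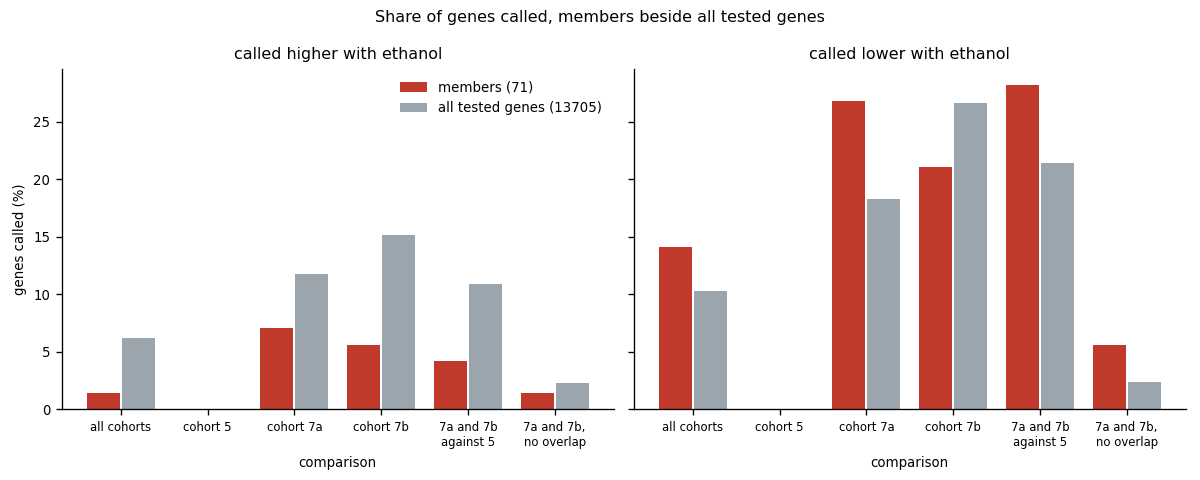
Percent of genes called higher (left) and lower (right) with ethanol in each comparison, for the 71 members (red) beside all 13705 tested genes (grey). In the higher direction the members lie below all genes, and in the lower direction above them except in cohort 7b, leaving aside cohort 5, where no gene was called in either direction.

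The difference between cohorts was itself tested, as the mean ethanol effect of cohorts 7a and 7b minus that of cohort 5. In all, 20 members (28.2%) had a lower effect in the later cohorts and 3 (4.23%) a higher one, against 21.4% and 10.9% of all genes. The 3 higher ones were IRF8 (0.87 ± 0.16, SE, adjusted p = 4.36e-05), TANK (0.62 ± 0.13, adjusted p = 0.000325) and TRAF7 (0.40). Among the called contrasts IFIH1 had the most negative one (-0.85 ± 0.15, SE, adjusted p = 2.76e-05), followed by IFIT3 (-0.79), IFI16 (-0.77), IFI44 (-0.63), IFIT1 (-0.60) and IFI27 (-0.60). TLR6 (-0.25, adjusted p = 0.0608), TLR7 (-0.34, adjusted p = 0.0758) and OAS2 (-0.14, adjusted p = 0.419) were called over all cohorts and not in the contrast. With RNA integrity number as a covariate the contrast called 11 members and 19.8% of all genes, in place of 23 members and 32.3%. With arrays shifted to 1 median, an alternative chosen after seeing the data, it called 10 members and 29.9% of all genes. Extraction kit, processing group and the animals of these cohorts cannot be told apart.

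Single probesets stood for these genes, and how far the others agreed varied by gene. IFIT3, IFI16, B2M, TLR7 and MAMU-DRA had the same sign over all cohorts on each of their 2 or 3 tested probesets. TANK and IRF8, the 2 members called higher in both 7a and 7b, did not. In cohort 7b the 6 probesets of TANK gave differences from -1.01 to 0.85, all of them called, with 3 higher and 3 lower.

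**Figure D4:**
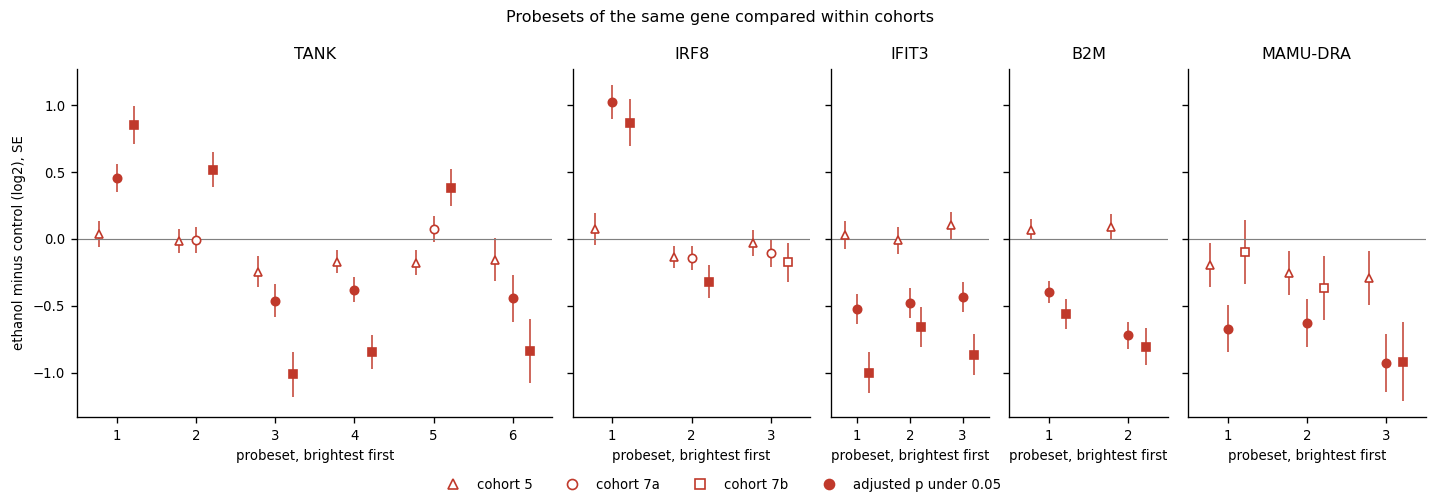
Difference of ethanol minus control (log2, vertical axis) with SE in cohorts 5, 7a and 7b for each tested probeset of TANK, IRF8, IFIT3, B2M and MAMU-DRA, in order of mean signal; filled symbols had an adjusted p under 0.05. The later cohorts lie below 0 for every probeset of IFIT3, B2M and MAMU-DRA, and on both sides of 0 for TANK and IRF8.

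Some members varied far more between animals than between treatments. IFIT1B, a relative of IFIT1, fell into 13 arrays at 6.07 to 6.33 and 30 arrays at 7.14 to 8.34, with no value between. The lower set held 8 ethanol and 5 control animals and the upper one 24 and 6, and both sets had animals of every cohort except that both cohort 7b controls lay in the upper one. Its difference of 0.21 ± 0.26 (SE, adjusted p = 0.617) was within that spread. The second probeset of MAMU-A was split in the same manner, with 26 arrays at 3.02 to 5.58 (18 ethanol, 8 control) and 17 at 7.74 to 11.45 (14 ethanol, 3 control), and its difference was 0.80 ± 0.86 (SE, adjusted p = 0.558). MAMU-AG, a nonclassical class I gene expressed in placenta, stood at 8.71 to 9.19 in 3 ethanol animals and at 10.16 or above in the other 40 animals. Whether such steps follow inherited sequence differences under the probes was not tested.

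**Figure D5:**
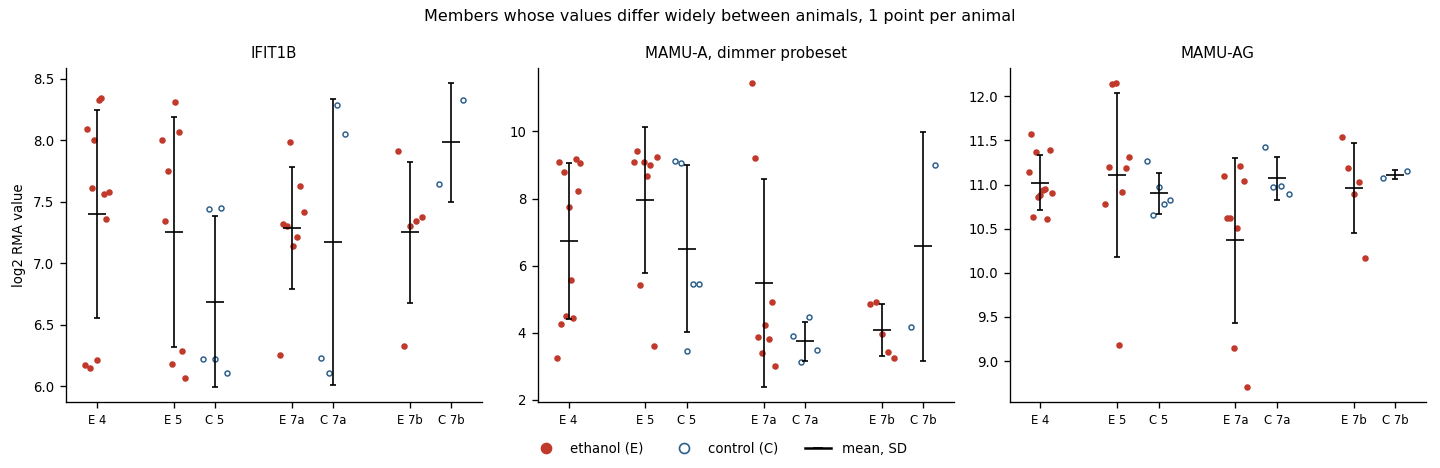
Log2 RMA value (vertical axes) of IFIT1B, of the second MAMU-A probeset and of MAMU-AG in every animal by treatment and cohort (E, ethanol, filled; C, control, open), with group mean and SD. IFIT1B and the MAMU-A probeset are split into a high and a low set of animals in both treatments, and MAMU-AG has 3 ethanol animals far below the rest.

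Among the 32 drinkers, the average daily ethanol intake (in g/kg per day) was related to no member and to no gene (0%) by limma after adjustment. At an unadjusted p under 0.05 there were 4 members and 313 genes. The smallest p-values belonged to TRAF1, an inducible inhibitor of TRAF2 signaling (slope 0.05 ± 0.02 per g/kg, SE, p = 0.0158), IFI27 (0.16 ± 0.06, p = 0.0188) and IFI27L1 (0.06 ± 0.02, p = 0.0249). All 3 slopes were positive, and IFI27 was lower in ethanol animals than in controls. The slope of IFIH1 was 0.06 ± 0.07.

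Genes of the same pathways outside the 72 were read from 4 lists. Of 8 tested interferon receptors and JAK-STAT partners, 1 was lower over all cohorts, IL10RB (-0.51 ± 0.14, SE, adjusted p = 0.0113), a receptor chain for interferon lambda and interleukin-10. IFNAR2, a chain of the type I interferon receptor, was called lower in cohort 7b (-0.77) and in neither of the other 2 cohorts. Of 28 other innate sensing and signaling genes, 2 were higher and 2 lower. MAVS, the mitochondrial adaptor through which IFIH1 signals, was higher (0.23 ± 0.05, SE, adjusted p = 0.00404), as was its inhibitor NLRX1 (0.16). The inflammasome adaptor PYCARD (-0.20) and the DNA sensor CGAS (-0.12) were lower. TBK1, the kinase that TANK binds, was called lower in cohort 7a (-0.42) and cohort 7b (-0.68). Among 30 other interferon-induced genes, CMPK2 (-0.37 ± 0.09, SE, adjusted p = 0.00636) and the chemokine CXCL10 (-0.27 ± 0.06, adjusted p = 0.00404) were lower and none was higher. Of 16 other antigen presentation genes, TAPBP (tapasin) was higher (0.28 ± 0.06, SE, adjusted p = 0.00341). The medians of the 4 lists were -0.06, -0.06, -0.01 and -0.02, beside -0.03 over all genes. Of all genes, 10.3% were called lower and 6.22% higher over all cohorts. The share called lower was 18.3% in cohort 7a and 26.6% in cohort 7b.

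In these tissue samples, fewer cells of a type and less RNA per cell cannot be told apart. The marker counts below stand beside 10.3% of all genes called lower and 6.22% called higher over all cohorts. These shares were 18.3% and 11.8% in cohort 7a and 26.6% and 15.2% in cohort 7b. Of 15 tested microglia and macrophage markers, 3 were lower over all cohorts (P2RY12 -0.49, AIF1 -0.42, TYROBP -0.28) and none was higher, with a median of -0.16. In cohort 7a, 6 of the 15 were lower (P2RY12 -0.97, AIF1 -0.54, TYROBP -0.47, CX3CR1 -0.44, PTPRC -0.41, TREM2 -0.23) and 1 was higher (CD68, 0.32). In cohort 7b, 3 were lower (P2RY12 -1.12, AIF1 -1.09, PTPRC -0.58) and 2 higher (C1QC 0.56, CSF1R 0.36). The mean over the list ran from 7.51 to 7.81 in ethanol animals of cohort 7a and from 7.73 to 8.08 in their controls, and from 7.58 to 7.74 in ethanol animals of cohort 7b and from 7.80 to 7.89 in their controls. In cohort 5 it ran from 7.54 to 7.90 in ethanol animals and from 7.61 to 7.74 in controls. Of the other cell types, 1 of 10 endothelial markers was lower (EMCN, -0.36), 1 of 6 neuronal markers higher (GAD2, 1.12), 1 of 5 red cell and granulocyte markers lower (HBB, -0.23), and none of 4 mural, 6 astrocyte, 2 oligodendrocyte and 7 lymphocyte markers was called over all cohorts (limma), with 1, 2, 0 and 1 of them at an unadjusted p under 0.05. Endothelial markers were lower for 1 of 10 in cohort 7a (EMCN, -0.39) and for 5 of 10 in cohort 7b, from -1.12 for EMCN to -0.36 for CLDN5. The mean over that list ran from 6.51 to 6.75 in ethanol animals of cohort 7b and from 6.86 to 6.91 in their controls, without overlap, and it overlapped in cohort 7a. The neuronal list mean was higher without overlap in both later cohorts, at 10.44 to 10.65 in ethanol animals of cohort 7a against 10.11 to 10.35 in controls, and at 10.43 to 10.75 in ethanol animals of cohort 7b against 10.06 to 10.21 in controls. Of its 6 genes, GAD2, an enzyme of GABA synthesis, was called higher in both (1.51 and 2.22) and CAMK2A in cohort 7b (0.40). The median difference of the 6 genes was 0.08 in cohort 7a and 0.18 in cohort 7b, so GAD2 largely moved the list mean. Adding RNA integrity to the batch block took the members called from 14 to 2 (23% to 0.744% of all genes). Adding the actin value to the cohort block took them from 19 to 11 (33.2% to 16.4%). Marker levels entered no fit. Beyond these counts, the part of marker levels, actin values and RNA integrity in the lower Toll-like receptor, interferon-induced and MHC genes was not tested.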

How the data were processed

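The authors deposited log2 values for 52865 probesets of 43 arrays (Affymetrix GeneChip Rhesus Macaque Genome Array, 1 array an animal), made from the scans with RMA in the affy package, with all arrays normalized as a single group and no batch adjustment. Versions of these tools are not given in the sources used here. RMA pulls the value distributions of arrays together, which hides a change shared by most genes, and compresses differences of dim probesets. The array number limits the precision.

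Of the probesets, 24956 carried 1 gene symbol, 361 several, 27449 none, and 99 were controls, which were left out with the last 2 kinds. A probeset was dropped as dim when 80% or more of the arrays read it under 3.5, which left 23815. Ethanol minus control was fitted with limma 3.58.1 (R 4.3.3) without covariates, after the study's 2-class design. A fit of the 7 groups of treatment and cohort gave the within-cohort differences and their contrast. Intake was fitted among the 32 drinkers. P-values were adjusted by Benjamini-Hochberg over all tested probesets, with a threshold of 0.05. The fits were tested on simulated data.

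RNA integrity numbers (42 arrays) and intakes came from the study's supplementary tables as covariates only. The batch of each array was recovered from the batch-adjusted values of 912 probesets given there, since arrays adjusted together share a linear relation to the deposited values. ComBat adjustment was written out in R and differed from those values by at most 5.05e-05. Gene symbols came from the platform annotation, and 69 of 72 were current. Roles were assigned by hand from the symbols, so a role is a label and not a shown function of each gene. Named members were those called over all cohorts, the one of smallest p in each role, up to 8 by the called contrast, 3 by intake, those of widest range, and B2M, TANK and all MAMU genes. Values of other members were added after they were seen. The members, the 4 pathway lists and the cell type marker lists were chosen with earlier results of these data known. Alternatives changed the batch, cohort, integrity and actin terms, the samples, the filter, the array scaling and the choice of probeset. No per-sample column was left unused, since 0 were unmatched.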

Additional observations from a re-analysis of the deposited data

Results flagged for a closer look

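Of 160 groups of 4 to 10 animals looked at for the named members, 13 held 1 value that lay apart from the rest, where chance alone gives about 1 in 20. All values are log2, and the nearest other value of the same group stands beside each. Among ethanol animals of cohort 5, IFI16 was 7.49 in animal 21 (next 7.76) and MAMU-AG was 9.19 in the same animal (next 10.78). In the same group TANK was 7.77 in animal 24 (next 8.25), TLR7 was 8.91 in animal 19 (next 9.65) and MAMU-DOA was 7.68 in animal 22 (next 7.47). The lone ethanol value of cohort 7a was that of MAMU-DMA, 6.27 in animal 31 (next 5.96). Among controls of cohort 5, IFIT1 was 8.52 in animal 16 (next 9.04), MAMU-DOA was 7.24 in the same animal (next 7.41) and TRAF1 was 5.96 in animal 15 (next 6.08). Among controls of cohort 7a, IFI44 was 6.49 in animal 28 (next 5.91), IFI27 was 7.38 in animal 26 (next 7.74), MAMU-AG was 11.43 in animal 25 (next 10.98) and MAMU-DOB was 4.94 in the same animal (next 4.71).

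For 15 of the 32 named members, the ethanol effect of cohorts 7a and 7b differed from that of cohort 5 in the limma contrast. It was more negative for IFIH1 (-0.85, adjusted p = 2.76e-05), IFIT3 (-0.79, adjusted p = 2.76e-05), IFI16 (-0.77, adjusted p = 0.000101), IFI44 (-0.63, adjusted p = 0.0426), IFIT1 (-0.60, adjusted p = 0.0117), IFI27 (-0.60, adjusted p = 0.0304), IFI30 (-0.57, adjusted p = 0.000149) and B2M (-0.55, adjusted p = 9.84e-05). The same held for TLR1 (-0.55, adjusted p = 0.0209), STAT3 (-0.47, adjusted p = 0.0191), ISG15 (-0.36, adjusted p = 0.033), MAMU-DMA (-0.33, adjusted p = 0.0308) and MAMU-DQA1 (-0.29, adjusted p = 0.0375). It was more positive for IRF8 (0.87, adjusted p = 4.36e-05) and TANK (0.62, adjusted p = 0.000325).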

How the results depend on the processing

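Of the 71 members, 11 were called over all cohorts (16.5% of all genes). The number was 19 with cohort as a block (33.2% of genes), 6 without cohort 4 (10.6%), 3 with arrays shifted to 1 median (12.9%) and 2, IRF8 and STAT3, with processing batch as a block and RNA integrity number as a covariate (0.744%). It was 29 in cohorts 7a and 7b only (35.8%) and 24 there with the batch block (31.4%), and 0 in cohorts 4 and 5 only, with and without that block (limma). With 1 animal left out it ran from 3 to 16, and from 3 to 21 with the batch block added. Batch as a block (14), ComBat (10), RNA integrity alone (14), no filter (11), a mean of 5 or more (11), gene means (14), and robust spread (11) stayed within 1.5 times. Adding the actin value to the cohort block gave 11 (16.4%), against 19 with that block alone. Integrity as a covariate gave 9 in cohort 7b (18.5%) in place of 19 (41.8%), and 11 in the contrast of cohorts (19.8%) in place of 23 (32.3%). The shift gave 10 in the contrast (29.9%). With 1 animal left out the contrast ran from 15 to 24, cohort 7a from 16 to 23 and cohort 7b from 14 to 21. Cohort 5 and intake gave 0 in every alternative tried. The batch block in the fits left out by animal or limited to cohorts, the actin fit, and the shift within cohorts were chosen after seeing the data. No paired analysis was done. Controls were matched by age within cohorts and in calories to a drinker, but the labels name no pairs. The cause of these changes was not tested.

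Single differences changed sign as follows. In cohorts 4 and 5 only, MAMU-AG was 0.16, MAMU-DQA1 0.11, MAMU-DMA 0.028, MAMU-E 0.0050, MAMU-F 0.012, TRAF1 0.011 and B2M 0.0007. With the batch block there, MAMU-AG was 0.10, MAMU-DQA1 0.090, MAMU-F 0.014, MAMU-DMA 0.0099, IFI30 0.0053, TLR6 0.0032 and B2M 0.0018. In cohorts 7a and 7b only, IFIT1B was -0.17, and with the batch block -0.32, with MAMU-DOA at -0.0097. Gene means gave MAMU-A 0.22 and TANK -0.15, and ComBat gave MAMU-AG 0.0024. Batch and integrity together gave MAMU-AG 0.065 and MAMU-DQA1 0.017, and integrity alone MAMU-B 0.0051. The shift gave MAMU-B 0.031, MAMU-DQA1 0.021 and TRAF1 0.047, and leaving out cohort 4 TRAF1 0.0027. With 1 animal left out, MAMU-AG ran from -0.16 to 0.057, MAMU-DQA1 from -0.087 to 0.014, MAMU-F from -0.13 to 0.020 and TRAF1 from -0.033 to 0.011. A mean of 5 or more left no value for OAS2 and TLR6, both dim.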
